A study of Mus musculus with 8 samples.

Results

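The 49 genes described here are a list of macrophage and monocyte genes, read from RNA-seq of mouse kidney at postnatal day 3. A row of the expression table belonged to the list when its gene symbol equalled one of the listed symbols, and all 49 symbols were found among 35976 genes. Each of the 8 libraries was made from kidney RNA, and the labels sort them by sex, genotype and a replicate number of 1 or 2. The control genotype is given as Slc12a3 Cre/+; C1 +/+ and the mutant genotype as Slc12a3 Cre/+; C1 YAP/+, with 2 male and 2 female libraries each, so that genotypes were compared as 4 libraries against 4, or 2 against 2 within a sex. Both genotypes carry the Cre allele at Slc12a3, which encodes the NaCl cotransporter that the distal convoluted tubule uses. The series describes the mutants as a Yap1 gain of function, but its labels do not explain C1 or give the species of the YAP sequence. Nothing in the labels says that the libraries of a group came from separate animals, and a p-value therefore covers only the spread seen between libraries.

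Macrophages are phagocytes that live in most tissues, and in the kidney they lie between the tubules and vessels. Many are laid down before birth and renew locally under the control of the receptor Csf1r and its ligands Csf1 and Il34, while others derive from blood monocytes, which enter tissue through the chemokine receptor Ccr2. Their gene products bind antibody, take up debris through scavenger receptors, make reactive oxygen with the NADPH oxidase and present peptides on MHC class II molecules. In bulk kidney RNA, more cells of a type and more RNA per cell cannot be told apart. The 49 genes are taken below in 7 groups by role: general myeloid genes (14), Fc receptors and their adaptors (6), NADPH oxidase subunits (3), resident and scavenger genes (10), monocyte-derived genes (4), antigen presentation (5), and lipid-associated and lectin genes (7).

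Library totals were 78.2 to 87.1 times 1e6 reads in the 4 replicate 1 libraries and 22.8 to 25.2 times 1e6 in the 4 replicate 2 libraries, so the replicate number is also a depth batch with 1 library of each group. Levels are scaled RPKM, that is, reads divided by gene length in kilobases and by the library total in 1e6 reads, and then by a scaling factor of 0.975 to 1.02 per library. Changes are mutant against control on the log2(scaled RPKM + 0.1) scale, which understates the change of genes near 0. A gene passed when its limma p-value, adjusted by Benjamini-Hochberg over 18156 tested genes, was under 0.05. Yap1 itself ran from 30.5 to 39.7 scaled RPKM in controls and from 34.7 to 36.5 in mutants (log2 change 0.01, SE 0.09, adjusted p = 0.973). Lists of values give the male replicates 1 and 2 and then the female replicates 1 and 2.

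Spi1, a gene on the list, encodes PU.1, the transcription factor of the myeloid lineage, which binds DNA around the letters AGGAAGT. The MHC class II genes are known for a conserved promoter module whose X box holds GCAACT and whose Y box, bound by NF-Y, holds CTGATTGG. These letters were searched on both strands in the 250 bases before the gene start in the RefSeq promoters of GRCm38.p6, which were at hand for 36 of the 49 genes. AGGAAGT was found in 8 of the 36 (Chil3, Fcgr1, Fcgr4, Folr2, Ly6c2, Lyz2, Mrc1 and Ptprc) and in 8.80% of 27025 genes with a promoter. CTGATTGG was found in 4 of the 36 (H2-Aa, H2-Eb1, Irf8 and Plac8) and in 4.43% of all genes, and GCAACT in 6 of the 36 and in 10.3%. H2-Aa and H2-Eb1 held both boxes, with GCAACT upstream of CTGATTGG. The 90-base stretches below show AGGAAGT or its reverse complement in 2 Fc receptor genes, the lysozyme gene and the folate receptor gene, and the X and Y boxes in both class II genes. They read 5′ to 3′ on the strand of the gene, with the matched letters in capitals. In Fcgr1 the letters GCAACT also occur and overlap the match shown. A match describes the sequence only and is neither a measured binding site nor a cause of a change.
Fcgr1, chr3:96293983-96294072, minus strand: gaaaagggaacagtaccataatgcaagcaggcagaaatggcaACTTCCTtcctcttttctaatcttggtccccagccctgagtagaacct
Fcgr4, chr1:171018836-171018925, plus strand: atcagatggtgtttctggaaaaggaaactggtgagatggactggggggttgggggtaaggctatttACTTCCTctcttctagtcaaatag
Lyz2, chr10:117282325-117282414, minus strand: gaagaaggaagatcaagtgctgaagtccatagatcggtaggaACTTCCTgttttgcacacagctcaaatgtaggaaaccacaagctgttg
Folr2, chr7:101857252-101857341, minus strand: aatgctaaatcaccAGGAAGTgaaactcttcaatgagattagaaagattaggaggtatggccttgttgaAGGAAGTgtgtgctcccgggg
H2-Aa, chr17:34287841-34287930, minus strand: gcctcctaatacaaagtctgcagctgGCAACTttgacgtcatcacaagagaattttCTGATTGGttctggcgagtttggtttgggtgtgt
H2-Eb1, chr17:34305749-34305838, plus strand: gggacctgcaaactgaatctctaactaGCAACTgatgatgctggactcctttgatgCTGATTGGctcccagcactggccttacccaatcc

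The list as a whole was higher in mutant kidneys. Of 48 genes tested, 41 were higher, 0 were lower and 7 did not pass, while over all tested genes 13.2% were higher and 13.0% lower. The median log2 change of the 48 was 1.47, against 0.006 over all tested genes. A change over 2-fold was called for 35 of the list, beside 3.97% of all genes, and one over 4-fold for 7, beside 1.01%. In 40 of the 48 the lowest mutant library lay above the highest control library, an arrangement found in 15.7% of all tested genes. Marco and Itgax are among both the 41 and the 40, and they met the filter on low reads through the mutant libraries alone. The summed level of the 49 genes was 226 to 273 scaled RPKM in controls and 589 to 681 in mutants, and the groups did not overlap. The largest single share of that sum, 14.6% to 24.5% of it in each library, came from Lgals3, which encodes galectin-3, a lectin that kidney epithelium also makes.

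**Figure D1:**
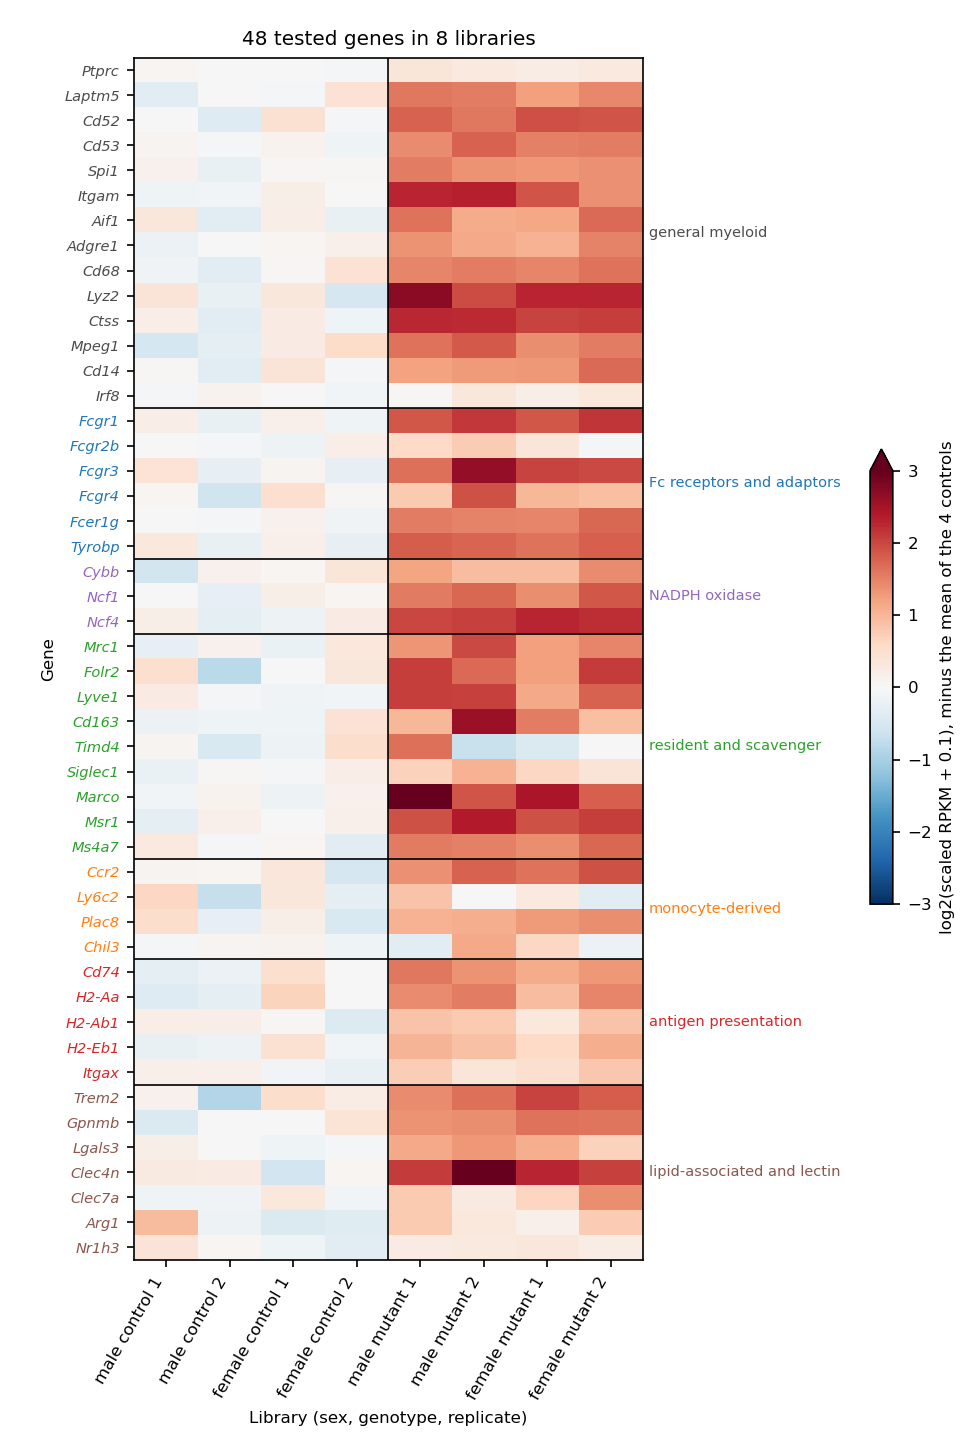
Heat map of the 48 tested genes (rows, by group) in the 8 libraries (columns). Colour is log2(scaled RPKM + 0.1) minus the mean of the 4 controls, from -3 (blue) to 3 (red), with larger values drawn as 3; the mutant columns are red in nearly every row, and Timd4, Ly6c2, Chil3, Irf8, Arg1, Nr1h3, Fcgr2b and Ptprc are among the palest or most mixed rows.

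Among the general myeloid genes 13 of 14 were higher, with a median log2 change of 1.48. Ctss, which encodes the lysosomal protease cathepsin S, stood at 6.92, 4.76, 7.17 and 5.48 scaled RPKM in controls and 29.2, 28.9, 24.8 and 25.8 in mutants. The groups lay far apart, and Ctss rose 4.46-fold with a 95% interval of 3.58 to 5.55 (adjusted p = 1.63e-05). Cd53, a leukocyte tetraspanin gene, ran at 1.18, 1.06, 1.21 and 1.01 in controls and 3.17, 4.01, 3.38 and 3.42 in mutants. It rose 2.95-fold with a 95% interval of 2.48 to 3.51 (adjusted p = 2.52e-05), with little spread in either genotype. For Spi1 the levels were 2.73, 2.12, 2.52 and 2.55 in controls and 7.32, 6.42, 6.28 and 6.597 in mutants. The PU.1 gene thus rose 2.62-fold with a 95% interval of 2.23 to 3.08 (adjusted p = 3.15e-05). Of the genes most often used to mark macrophages, Adgre1, the gene of the F4/80 antigen, rose 2.38-fold from 1.82 ± 0.181 (mean and SD over the 4 controls) to 4.503 ± 0.634 scaled RPKM (over the 4 mutants), and Cd68, an endosomal glycoprotein gene, rose 2.87-fold from 2.66 ± 0.644 to 7.68 ± 0.431.

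The steepest rise in this group was that of Lyz2, the lysozyme M gene. Its levels were 20.98, 13.7, 20.3 and 11.3 in controls and 105, 62.5, 78.7 and 78.3 in mutants. Every mutant library was above every control, and Lyz2 rose 4.95-fold with a 95% interval of 3.44 to 7.102 (adjusted p = 0.000155). Itgam encodes CD11b, a subunit of complement receptor 3, and measured 0.291, 0.305, 0.383 and 0.3297 in controls against 1.97, 2.04, 1.47 and 0.999 in mutants. The lowest mutant value came from the second female library and still lay above all controls, with a rise of 3.91-fold with a 95% interval of 2.83 to 5.399 (adjusted p = 0.000201). In the GENCODE M21 annotation of the same genome, 70.04% of the exon bases of Itgam also belong to Gm49368 on the same strand, so reads may have been divided or dropped there. The second lysozyme gene is a close copy of Lyz2 as well, and how the authors counted reads that fit both is not given in the sources used here.

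The other general genes rose by log2 1.37 to 1.80. They are Cd52, which encodes a small leukocyte surface glycoprotein (1.80), Mpeg1 for the pore-forming perforin-2 (1.60), Laptm5, a lysosomal membrane gene of leukocytes (1.45), Aif1, which encodes the actin-binding protein IBA1 (1.40), and Cd14, the co-receptor gene for bacterial lipopolysaccharide (1.37). Ptprc and Irf8 stood apart from them. Ptprc encodes CD45, found on all leukocytes, and ran at 2.73, 2.65, 2.65 and 2.52 in controls and 3.397, 3.23, 3.095 and 3.24 in mutants. The genotypes did not overlap, but the rise was only 1.22-fold with a 95% interval of 1.08 to 1.38 (adjusted p = 0.0245). It missed the threshold within either depth batch and when any library but the first male control or the second male mutant was left out (adjusted p 0.0551 to 0.0785), with a log2 change of 0.26 to 0.31 throughout. Irf8, a transcription factor gene of monocytes and dendritic cells, was at 5.27, 5.86, 5.46 and 5.17 in controls and 5.53, 6.94, 6.14 and 6.77 in mutants. In the mutants 3 of the 4 values lay above all controls, and the change was 1.16-fold with a 95% interval of 0.999 to 1.35 (adjusted p = 0.139), which did not pass.

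Fc receptors bind the constant part of antibodies, and the adaptors Fcer1g and Tyrobp carry the ITAM motif that passes the signal on. In this group 5 of 6 genes were higher, with a median log2 change of 1.65. Fcer1g, the common gamma chain gene, measured 10.2, 9.83, 11.05 and 9.38 in controls and 29.4, 28.4, 27.98 and 33.6 in mutants. Both genotypes were tight, and the rise of 2.93-fold with a 95% interval of 2.56 to 3.35 (adjusted p = 7.07e-06) had the smallest adjusted p of the 48. Tyrobp, which encodes DAP12, was at 17.2, 11.7, 15.5 and 11.6 in controls and 48.8, 46.8, 42.6 and 47.7 in mutants. It rose 3.35-fold with a 95% interval of 2.703 to 4.14 (adjusted p = 4.07e-05). Fcgr1, the gene of the high-affinity IgG receptor CD64, stood at 0.986, 0.714, 0.948 and 0.762 in controls and 3.34, 4.04, 3.31 and 4.099 in mutants. All mutants lay far above all controls, a rise of 3.998-fold with a 95% interval of 3.21 to 4.97 (adjusted p = 2.39e-05).

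The low-affinity receptors gave different calls. Fcgr3, an activating receptor gene, was at 3.37, 2.12, 2.68 and 2.12 in controls and 8.199, 16.3, 10.5 and 10.3 in mutants. The second male mutant was highest, and Fcgr3 rose 4.21-fold with a 95% interval of 2.97 to 5.97 (adjusted p = 0.000228). Fcgr4, also activating, rose 2.21-fold (adjusted p = 0.0248), but the second male mutant at 2.00 lay far above the others at 0.861 to 1.03, and without the second male control the gene no longer passed (log2 0.92, adjusted p = 0.0663). In the replicate 1 libraries its log2 change was 0.61 and in the replicate 2 libraries 1.68. Fcgr2b encodes the inhibitory receptor of the family and measured 3.798, 3.67, 3.37 and 4.32 in controls and 5.800, 6.52, 4.89 and 3.63 in mutants. The second female mutant fell inside the control range. The change of Fcgr2b of 1.34-fold with a 95% interval of 1.05 to 1.71 (adjusted p = 0.0797) did not pass. It passed without that library (log2 0.56, adjusted p = 0.0195) or without the second female control (log2 0.55, adjusted p = 0.0221). It also passed in the replicate 1 libraries alone (log2 0.56, adjusted p = 0.0223) and by voom on the reads of all 8 libraries (log2 0.48, adjusted p = 0.0327). Fcgr2b, Fcgr3 and Fcgr4 are similar in sequence and lie near each other on chromosome 1, so reads shared between them carry that uncertainty, and 4.07% of the exon bases of Fcgr2b lie opposite the antisense gene Gm38204.

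The phagocyte NADPH oxidase is a membrane pair, gp91phox from Cybb and p22phox from Cyba, that is switched on by cytosolic subunits. All 3 listed genes were higher, by a median log2 of 1.63. Ncf4, which encodes the cytosolic subunit p40phox, was at 0.756, 0.517, 0.581 and 0.792 in controls and 2.94, 3.02, 3.57 and 3.39 in mutants. It rose 4.41-fold with a 95% interval of 3.54 to 5.49 (adjusted p = 1.63e-05), the steepest of the 3. Ncf1, for p47phox, measured 0.843, 0.693, 0.953 and 0.881 in controls and 2.64, 2.98, 2.38 and 3.297 in mutants. It rose 3.098-fold with a 95% interval of 2.51 to 3.83 (adjusted p = 5.7e-05). Cybb was at 0.466, 0.804, 0.769 and 0.973 in controls and 1.79, 1.47, 1.48 and 2.13 in mutants. The rise was 2.16-fold with a 95% interval of 1.596 to 2.93 (adjusted p = 0.00315). Among further subunit genes, Rac2 rose 2.49-fold, while Cyba was 1.39-fold lower (adjusted p = 0.0321). Cyba stood at 475 to 692 scaled RPKM in controls, far above the level of Cybb per length, and 7 of 18 other ways of fitting it gave an adjusted p above 0.05, of 0.0524 to 0.122.

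**Figure D2:**
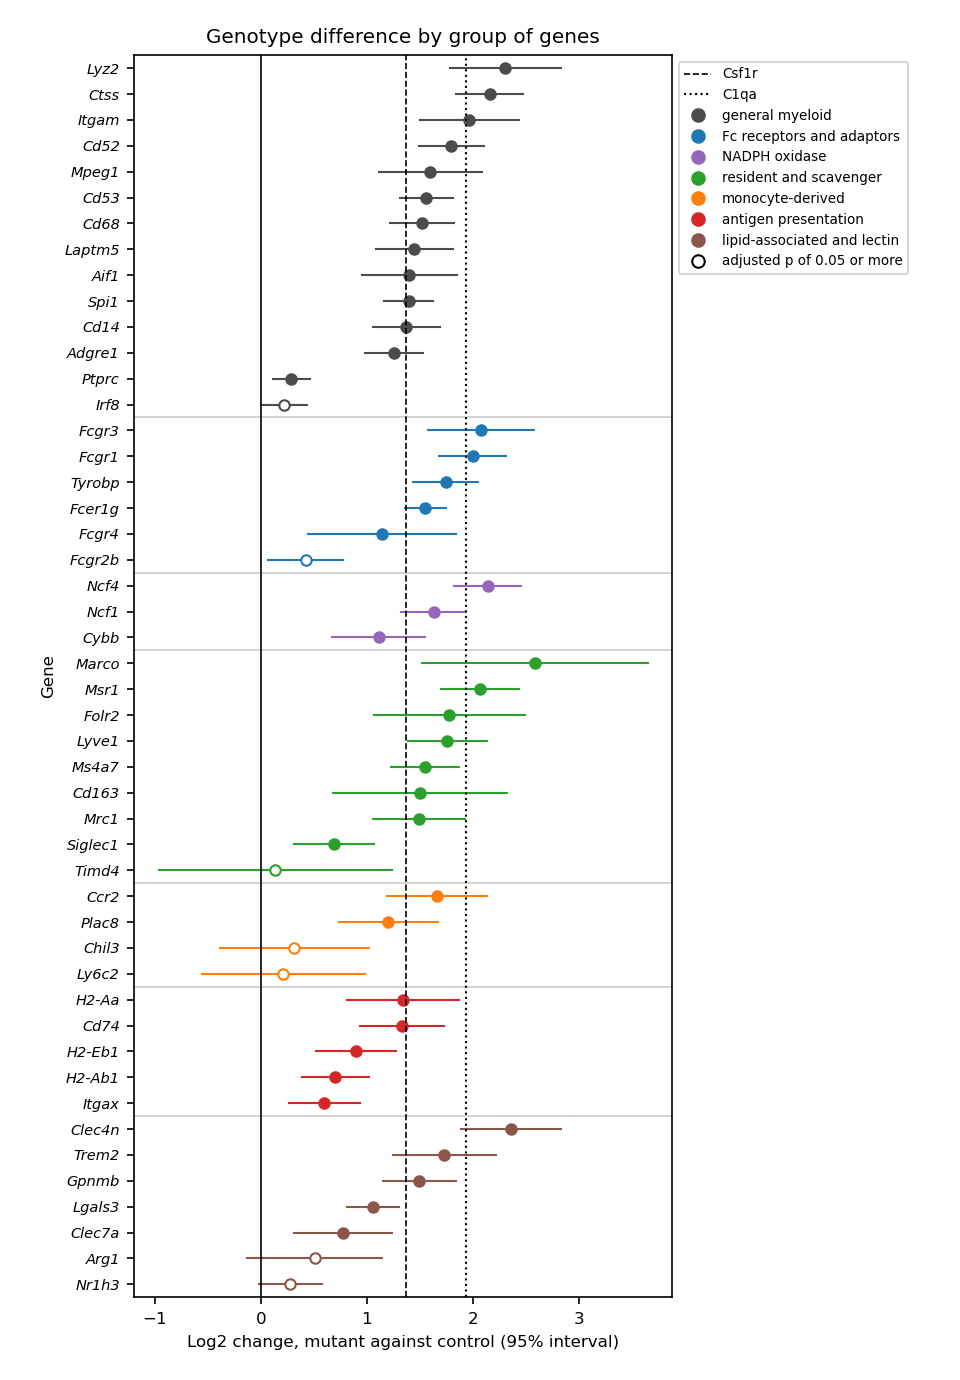
Log2 change of each tested gene, mutant against control (points), with its 95% interval from limma (bars), by group and in falling order within a group; open points did not pass. The dashed line marks Csf1r (1.37) and the dotted line C1qa (1.93), and most of the filled points lie around or between them, with the antigen presentation genes at or left of the dashed line.

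Resident and scavenger genes came next, and 8 of the 9 that could be tested were higher, with a median log2 change of 1.55. Msr1, which encodes the class A scavenger receptor CD204, was at 0.2403, 0.363, 0.309 and 0.359 in controls and 1.46, 2.05, 1.45 and 1.66 in mutants. It rose 4.19-fold with a 95% interval of 3.24 to 5.41 (adjusted p = 4.3e-05). Ms4a7, a membrane gene of tissue macrophages, measured 1.82, 1.42, 1.53 and 1.15 in controls and 4.500, 4.32, 3.99 and 5.09 in mutants. It rose 2.92-fold with a 95% interval of 2.34 to 3.64 (adjusted p = 9.39e-05). Lyve1 encodes a hyaluronan receptor of macrophages along vessels and of lymphatic endothelium, and stood at 1.23, 0.983, 0.956 and 0.971 in controls and 4.69, 4.55, 2.38 and 3.77 in mutants. The first female mutant was lowest of its genotype and still above all controls, and Lyve1 rose 3.38-fold with a 95% interval of 2.61 to 4.39 (adjusted p = 0.000111). Prox1, the transcription factor gene that defines lymphatic endothelium and is also used in nephron tubules, went the other way, from 0.307 to 0.385 in controls to 0.0603 to 0.111 in mutants (2.41-fold lower, adjusted p = 0.000247).

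The mannose receptor gene Mrc1 rose 2.82-fold from 2.43 ± 0.486 to 7.09 ± 1.78, and Folr2, a folate receptor gene of resident macrophages, 3.42-fold from 0.528 ± 0.217 to 1.99 ± 0.544, as mean and SD of 4 libraries each. Cd163, the haemoglobin scavenger receptor gene, rose 2.83-fold (adjusted p = 0.0156), and its mutant libraries ran from 0.914 to 3.17. It did not pass in the replicate 2 libraries alone (log2 1.59, adjusted p = 0.384). Siglec1, the gene of the sialic acid receptor CD169, lay at 0.0349, 0.0577, 0.0493 and 0.0786 in controls and 0.148, 0.2198, 0.138 and 0.102 in mutants. Its rise of 1.61-fold with a 95% interval of 1.24 to 2.09 (adjusted p = 0.0156) also missed in the replicate 2 libraries (log2 0.60, adjusted p = 0.203). At levels this near the pseudocount the size is uncertain. The log2 change of Siglec1 ran from 0.13 to 1.56 over the fits, and the ratio of its mean levels was 2.76.

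Marco and Timd4 spread widely among the mutants. Marco, a scavenger receptor gene that in the normal mouse marks only some macrophages, measured 0.0243, 0.0423, 0.0195 and 0.0432 in controls and 2.37, 0.384, 0.617 and 0.356 in mutants. The 4 controls held 11 reads in all and the 4 mutants 542, and the first male mutant was several times above the other mutants. No control library reached the 0.2 reads per 1e6 needed for testing. Marco was thus tested only because the mutants were high, and its call is no separate support for a rise. On the scale with its pseudocount of 0.1 the rise was 5.999-fold with a 95% interval of 2.87 to 12.5 (adjusted p = 0.00389), and the ratio of the mean levels was 28.9. With a pseudocount of 1 the log2 change was 0.79 and with 0.01 it was 4.06, against 2.58 as reported. The replicate 1 libraries gave 3.45 and the replicate 2 libraries 1.72. Timd4, a phosphatidylserine receptor gene that marks long-lived resident macrophages, stood at 0.09902, 0.0364, 0.0671 and 0.167 in controls and 0.486, 0.0183, 0.0375 and 0.0851 in mutants. The first male mutant was high and the other mutants lay within or below the control range. The change was 1.099-fold with a 95% interval of 0.513 to 2.35 (adjusted p = 0.874), did not pass, and turned negative without that library (log2 -0.43, adjusted p = 0.243) or without the second male control (log2 -0.081). Vsig4, a complement receptor gene of resident macrophages, had too few reads to be tested, with 0 reads in the 4 controls and 13, 0, 4 and 2 in the mutants. With 3 reads over the controls taken as the most that a count of 0 allows, the lower bound of the rise of Vsig4 per read in the mutants was 6.11-fold. This figure allows for counting error in the controls only and takes the 19 mutant reads as exact. It rests largely on the first male mutant, without which the other mutants held 6 reads and the figure was 3.23.

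**Figure D3:**
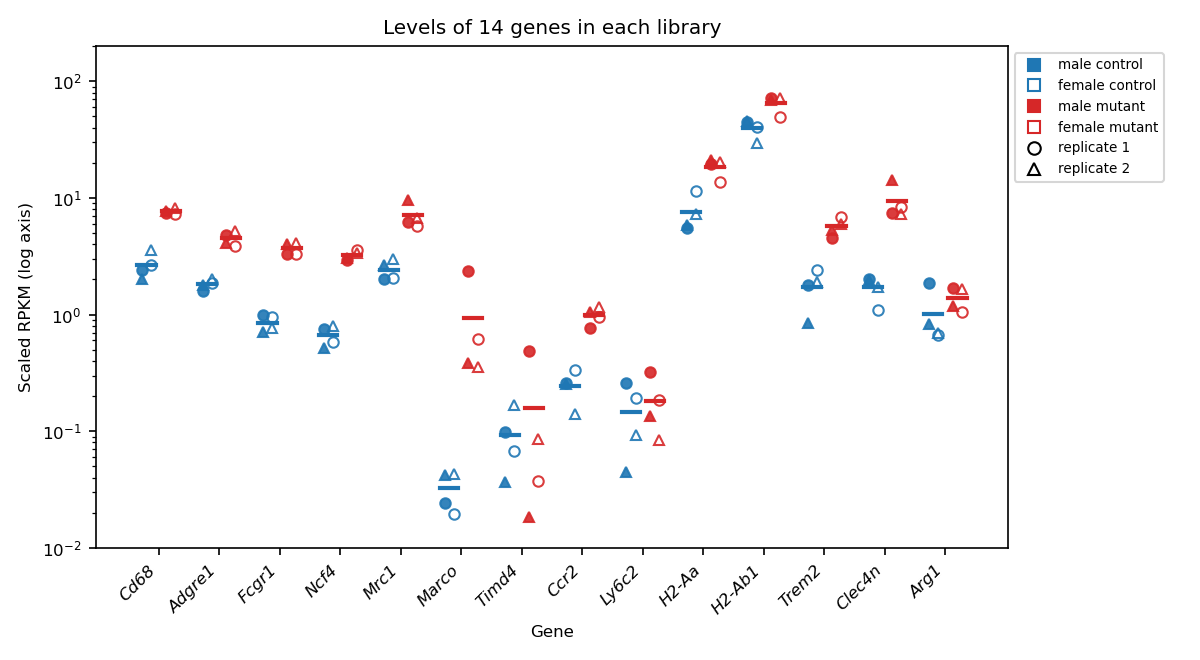
Scaled RPKM (log axis) of 14 genes in the 8 libraries; blue is control and red mutant, filled symbols male and open symbols female, circles replicate 1 and triangles replicate 2, and bars the mean of 4 libraries. The genotypes separate for 11 of the genes, while those of Timd4, Ly6c2 and Arg1 overlap and Marco spreads from 0.356 to 2.37 among mutants.

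The monocyte-derived group split evenly: 2 of 4 genes were higher and the other two did not pass. Ccr2, the receptor gene by which monocytes follow chemokines into tissue, was at 0.258, 0.254, 0.332 and 0.1405 in controls and 0.773, 1.05, 0.948 and 1.17 in mutants. The genotypes were well apart and Ccr2 rose 3.17-fold with a 95% interval of 2.29 to 4.398 (adjusted p = 0.000552). Plac8, expressed in monocytes and in some epithelia, stood at 18.9, 11.1, 14.7 and 9.52 in controls and 26.9, 28.1, 31.7 and 34.8 in mutants. It rose 2.301-fold with a 95% interval of 1.66 to 3.19 (adjusted p = 0.00301), and its log2 change was 0.81 in the replicate 1 libraries and 1.60 in the replicate 2 libraries. Its level per length was far above that of Ccr2 in every library.

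Ly6c2 and Chil3 are classical monocyte genes, and both were near the detection limit. Ly6c2, which encodes the Ly6C antigen of inflammatory monocytes, measured 0.258, 0.04497, 0.194 and 0.0918 in controls and 0.322, 0.136, 0.185 and 0.0842 in mutants. The ranges overlapped, with 37 reads in all controls and 45 in all mutants, and the change was 1.16-fold with a 95% interval of 0.6797 to 1.97 (adjusted p = 0.705). It turned negative without the second male control (log2 -0.10) or the first male mutant (log2 -0.0092). Chil3, a chitinase-like gene of monocytes and alternatively activated macrophages, was at 0.0626, 0.0819, 0.0839 and 0.0557 in controls and 0.0376, 0.275, 0.161 and 0.0511 in mutants. Its change was 1.24-fold with a 95% interval of 0.766 to 2.02 (adjusted p = 0.509). Both intervals take in lower as well as higher levels, so no difference was detectable at this depth. Ly6c2 and Chil3 each have a near-identical neighbour in the genome.

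All 5 antigen presentation genes were higher, with a median log2 change of 0.90. Cd74, the invariant chain that guides MHC class II molecules, was at 13.3, 14.2, 22.8 and 15.97 in controls and 48.99, 41.3, 34.9 and 39.9 in mutants. It rose 2.52-fold with a 95% interval of 1.91 to 3.32 (adjusted p = 0.000722). H2-Aa, an alpha chain gene of class II, stood at 5.47, 5.82, 11.4 and 7.301 in controls and 19.4, 21.1, 13.7 and 20.1 in mutants. The first female control and the first female mutant came close to each other, and the rise was 2.53-fold with a 95% interval of 1.75 to 3.65 (adjusted p = 0.00315). For H2-Eb1, a beta chain gene, the levels were 7.76, 8.13, 12.6 and 8.56 in controls and 18.6, 16.8, 13.9 and 19.3 in mutants. The same 2 female libraries were again the nearest, and H2-Eb1 rose 1.86-fold with a 95% interval of 1.44 to 2.42 (adjusted p = 0.00419).

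H2-Ab1, the beta chain gene that pairs with H2-Aa, was at 45.2, 45.3, 40.5 and 29.6 in controls and 71.3, 68.5, 49.4 and 71.8 in mutants. It rose 1.63-fold with a 95% interval of 1.31 to 2.02 (adjusted p = 0.00592), and its level per length was several times that of H2-Aa in each control library. Cd74, H2-Aa, H2-Ab1 and H2-Eb1 did not pass in the replicate 1 libraries (log2 1.24, 1.03, 0.47 and 0.69; adjusted p 0.163, 0.374, 0.0505 and 0.252), and all 4 passed in the replicate 2 libraries. Itgax encodes CD11c, an integrin of dendritic cells and some macrophages, and was barely detected at 0.0288, 0.0302, 0.00927 and 0 in controls and 0.0942, 0.0507, 0.0622 and 0.103 in mutants. These are 16 and 71 reads in all, and the rise of 1.52-fold with a 95% interval of 1.201 to 1.91 (adjusted p = 0.0171) was lost in the replicate 2 libraries (log2 0.62, adjusted p = 0.167) and without the first male mutant (adjusted p = 0.0562). Itgax, too, met the filter on low reads through the mutant libraries alone. The size of its rise rests on the pseudocount, with a log2 change of 0.083 for 1 and 1.86 for 0.01, and the ratio of the mean levels was 4.55. Of 9 further genes of the class II pathway 1 was higher, 1 lower and 7 did not pass, with a median log2 change of 0.21. Cd86, a costimulatory ligand gene, rose 2.41-fold, and H2-DMb1, part of the peptide-loading molecule, fell from 18.8 to 35.4 in controls to 14.2 to 19.4 in mutants (1.56-fold, adjusted p = 0.0122).

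Lipid-associated and lectin genes include receptors that mark macrophages taking up lipid and debris. Here 5 of 7 were higher, with a median log2 change of 1.05. Clec4n, which encodes the C-type lectin dectin-2, was at 2.03, 1.99, 1.09 and 1.72 in controls and 7.48, 14.2, 8.43 and 7.23 in mutants. The second male mutant was highest, and Clec4n rose 5.14-fold with a 95% interval of 3.71 to 7.13 (adjusted p = 7.82e-05). Gpnmb, a glycoprotein gene of lipid-laden macrophages, measured 0.0317, 0.0774, 0.0782 and 0.135 in controls and 0.354, 0.368, 0.446 and 0.435 in mutants. The mutants were close together, and Gpnmb rose 2.82-fold with a 95% interval of 2.23 to 3.57 (adjusted p = 0.000161). At these low levels the pseudocount matters: the log2 change of Gpnmb was 0.37 with a pseudocount of 1 and 2.30 with 0.01, against 1.496 as reported.

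Trem2, the lipid receptor gene that signals through the product of Tyrobp, rose 3.31-fold from 1.74 ± 0.648 to 5.704 ± 1.01, as mean and SD of 4 libraries each. Lgals3 stood at 65.1, 56.8, 52.2 and 55.4 in controls and 126, 141, 122 and 91.7 in mutants. It rose 2.08-fold with a 95% interval of 1.75 to 2.46 (adjusted p = 0.000183). Clec7a, the dectin-1 gene, was at 0.534, 0.534, 0.759 and 0.546 in controls and 1.09, 0.725, 0.977 and 1.71 in mutants. The second male mutant lay below the first female control, which makes Clec7a the only passing gene whose genotypes overlapped. Its rise of 1.71-fold with a 95% interval of 1.24 to 2.36 (adjusted p = 0.0229) missed the threshold within either depth batch and without the second male control, the second female control, the first male mutant or the second female mutant (adjusted p 0.0511 to 0.0768).

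Arg1 and Nr1h3 did not pass. Arg1, the arginase gene of alternatively activated macrophages, was at 1.88, 0.825, 0.665 and 0.697 in controls and 1.68, 1.18, 1.05 and 1.65 in mutants. The first male control was the highest of all 8 libraries. The change was 1.42-fold with a 95% interval of 0.916 to 2.205 (adjusted p = 0.229), and without that control it passed (log2 0.80, adjusted p = 0.0171). Nr1h3, which encodes the sterol sensor LXR alpha, measured 4.27, 3.37, 2.94 and 2.55 in controls and 3.83, 3.97, 4.12 and 3.79 in mutants. The same control was again above the mutants. Its change was 1.21-fold with a 95% interval of 0.988 to 1.49 (adjusted p = 0.159), and without that library it passed (log2 0.39, adjusted p = 0.0301).

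To set the genes against one common scale, each was also tested relative to Csf1r, a gene of mononuclear phagocytes outside the list. Csf1r stood at 5.17, 5.65, 5.55 and 7.06 in controls and 16.3, 16.9, 14.1 and 13.8 in mutants, a rise of 2.59-fold (log2 1.37, adjusted p = 7.1e-05). Of the 48 genes, 9 rose more than Csf1r and 13 changed less, and over all genes tested 1.21% changed more and 94.5% less. Those that rose more were Itgam, Lyz2, Ctss, Fcgr1, Fcgr3, Ncf4, Marco, Msr1 and Clec4n, by log2 0.59 to 1.21 beyond Csf1r. With a pseudocount of 1, Itgam, Marco and Msr1, all low in controls, fell short of Csf1r instead, by amounts that did not pass. Clec4n exceeded it by 0.99 (SE 0.20, adjusted p = 0.000411) and Ctss by 0.78 (SE 0.19, adjusted p = 0.00136). Those that changed less were Ptprc, Irf8, Fcgr2b, Timd4, Siglec1, Ly6c2, Chil3, H2-Ab1, H2-Eb1, Itgax, Clec7a, Arg1 and Nr1h3. For the low genes among these the call depended on the pseudocount. With 0.01, Timd4, Siglec1, Ly6c2, Chil3 and Clec7a no longer passed (adjusted p 0.0949 to 0.819) and Itgax turned positive (log2 0.47, adjusted p = 0.403), which left 7, while with a pseudocount of 1 there were 19. The ratio of the mean levels, which uses no pseudocount, was 4.55 for Itgax and 2.76 for Siglec1, above the 2.61 of Csf1r. Ptprc fell short by 1.09 (SE 0.16, adjusted p = 2.64e-05), H2-Ab1 by 0.67 (SE 0.22, adjusted p = 0.0107) and H2-Eb1 by 0.47 (SE 0.19, adjusted p = 0.0312). The reference mattered. Against C1qa, which encodes a chain of complement C1q made by macrophages and rose 3.82-fold, only Marco rose more and 24 changed less, over a background of 0.689% and 97.4%. The place of Marco depended on the setting. Its log2 change was 0.79 with a pseudocount of 1 and 1.72 in the replicate 2 libraries. That of C1qa was 1.77 to 2.10 over all fits, so Marco did not exceed it in those settings. The 13 that changed less than Csf1r were also called less than C1qa, and 6 of them were themselves higher in mutants (Ptprc, Siglec1, H2-Ab1, H2-Eb1, Itgax and Clec7a), of which Siglec1, Itgax and Clec7a are among those whose call against Csf1r depended on the pseudocount.

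Both sexes showed the rise. In males 37 of the 48 genes were higher, beside 7.85% of all tested genes, and in females 31, beside 6.01%, with 28 called in both. The median log2 change was 1.59 in males and 1.31 in females, and that of all tested genes was 0.000157 in males and 0.01 in females. The difference between the sexes was tested as an interaction, and 0 of the 18156 genes passed (554 at an unadjusted p under 0.05). The voom fit on reads also gave 0 for the list. Mpeg1, Itgam, Cd74 and H2-Aa had an unadjusted interaction p under 0.05 and were picked out after their values were seen. Mpeg1 changed by log2 2.13 in males and 1.06 in females, and H2-Aa by 1.82 and 0.85 (adjusted p = 0.948 for each). Female against male over both genotypes, 0.0330% of all genes and 0 of the list passed (504 genes and 4 of the list at an unadjusted p under 0.05). Without the second female mutant the count in females was 19, and it was 19 to 31 over the 8 libraries left out in turn. Among the 41 genes higher in mutants, the first female mutant was the lowest of its genotype in 20.

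All 41 called genes had a positive change within each depth batch. They were called from these same libraries, so that shared direction is no separate support. Of the 48 genes, 35 were higher in the 4 replicate 1 libraries alone, beside 8.80% of all tested genes. In the 4 replicate 2 libraries alone 37 were higher, beside 8.82%. The median log2 change of the 48 was 1.32 in the replicate 1 libraries and 1.59 in the replicate 2 libraries, and that of all genes was 0.01 in both. The change was larger in the replicate 2 libraries for 31 of the 41. Depth, library preparation and replicate cannot be told apart here. Each batch alone holds 1 library of each group, so its calls lean on the spread seen in other genes.

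**Figure D4:**
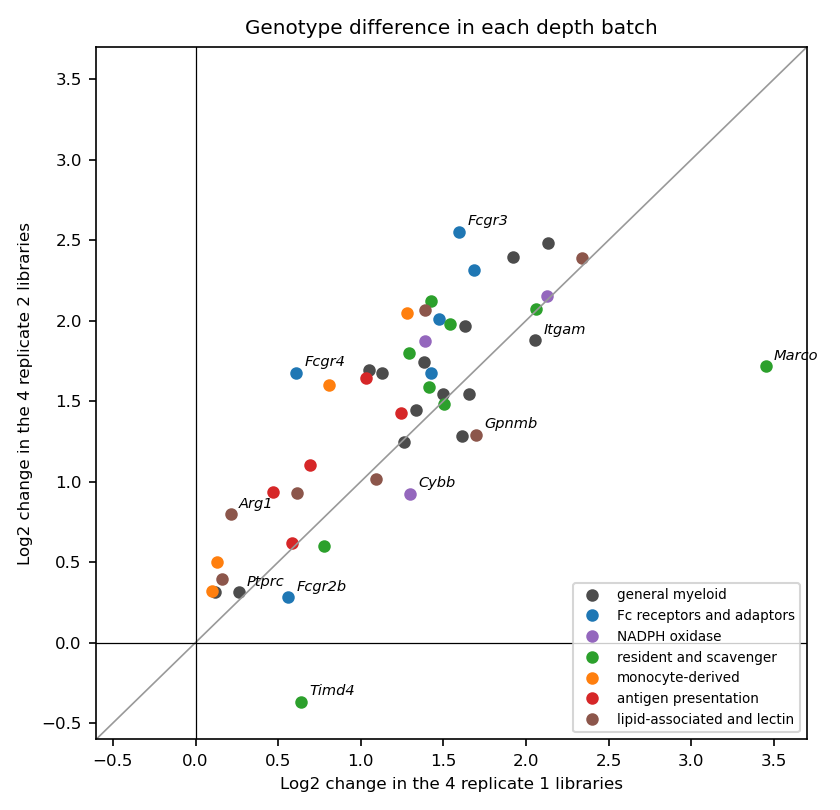
Log2 change of the 48 tested genes in the 4 replicate 1 libraries (x axis) and in the 4 replicate 2 libraries (y axis), coloured by group, with the line of equal change. Most points lie above the line, Marco lies far to its right at 3.45 and 1.72, and Timd4 alone has opposite signs, 0.64 and -0.37.

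Ligands and receptors that act on macrophages were higher as well. Csf1, the main growth factor of macrophages, stood at 2.35, 2.19, 2.34 and 2.73 in controls and 22.1, 18.9, 17.6 and 18.7 in mutants. No mutant was less than several times the highest control, and Csf1 rose 7.75-fold (SE 0.10 on the log2 scale, adjusted p = 7.84e-07). Il34, the second ligand of Csf1r, rose 4.07-fold and Csf2rb, the shared beta chain gene of the GM-CSF, IL-3 and IL-5 receptors, 3.58-fold, which makes 4 of 5 tested genes of this axis with Csf1r. Of 11 genes of monocyte chemokines and their receptors 9 were higher and 0 lower, with a median log2 change of 1.94. Cxcl16, a chemokine that is also a scavenger receptor, was at 11.8, 8.28, 8.98 and 7.01 in controls and 62.05, 52.5, 54.8 and 55.8 in mutants (6.28-fold, adjusted p = 4.98e-06). The Ccr2 ligand genes Ccl7 and Ccl12 rose 5.44-fold and 5.31-fold, and Cx3cl1, the fractalkine gene, 2.94-fold.

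All 6 genes of C1q and complement receptors were higher. C1qa ran from 13.3 to 19.5 scaled RPKM in controls and from 50.8 to 73.5 in mutants, C1qb rose 3.53-fold, C1qc 3.77-fold and the anaphylatoxin receptor gene C3ar1 2.88-fold. Signalling genes downstream of the Fc receptors and their inhibitory partners were higher in 12 of 16 cases and lower in 0, with a median of 1.15. They include Vav1, an exchange factor gene (2.94-fold), Lilrb4a, an inhibitory receptor gene (4.80-fold), and Trem1, an activating receptor gene at only 0.0204 to 0.262 scaled RPKM (2.23-fold). Of 5 tested cytokine and effector genes, Tnf (3.33-fold), Il1b (2.70-fold) and Il18 (2.38-fold) were higher, all below 1.4 scaled RPKM in every library. Nos2, for the inducible nitric oxide synthase, was 1.34-fold lower (adjusted p = 0.0437), and 13 of 18 other fits gave an adjusted p above 0.05.

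Further gene lists drawn from macrophage programmes moved in both directions, and which kidney cells made these RNAs was not tested. Among 12 genes of myeloid transcription factors 6 were higher and 2 lower, with Cebpb up 3.24-fold, Runx1 2.79-fold and Klf4 1.86-fold. Maf, which is known in resident macrophages and also in kidney epithelium, was 1.41-fold lower (adjusted p = 0.00449). In lysosome and lipid handling 6 of 16 genes were higher and 4 lower. Spp1, the osteopontin gene, which tubule cells also express, went from 532, 459.6, 571 and 434 in controls to 2931, 3157, 2279 and 2708 in mutants (5.54-fold). Ctsd, a lysosomal protease gene, rose 1.94-fold and the tetraspanin gene Cd9 1.74-fold. Lpl (1.55-fold), Fabp5 (1.44-fold), Fabp4 (1.49-fold) and Lipa (1.36-fold), genes of lipid breakdown and transport, were lower, though Fabp4 missed the threshold in 7 and Lipa in 6 of 18 other fits. Of 10 genes for the clearance of dying cells, Pros1, Cd36 and Mfge8 rose by log2 0.58 to 0.81, while Mertk, the clearance receptor gene of resident macrophages, fell 1.66-fold (adjusted p = 0.00206) and its ligand gene Gas6 1.32-fold (adjusted p = 0.00897).

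Markers of other cells were read beside these results, and their part in them was not tested. Over all tested genes 13.2% were higher and 13.0% lower, and counts in short lists near these shares say little. Among 11 tested neutrophil markers 2 were higher, Ly6g (2.31-fold) and Csf3r (1.42-fold, not passing in 9 of 18 other fits), and the summed level was 18.0 to 32.9 in controls and 30.5 to 46.6 in mutants. Most of that sum was S100a8 and S100a9, with means of 10.2 and 10.5 in controls and 16.4 and 15.9 in mutants, and neither passed. T and NK cell markers were higher in 6 of 11 cases, with Cd3g at 0.202 to 0.293 in controls and 0.807 to 0.973 in mutants, while Cd8a was 3.46-fold lower. B and plasma cell markers were higher in 2 of 6 (Blk and Cd22, both under 0.3 scaled RPKM, with Cd22 not passing in 9 of 18 other fits), and dendritic cell markers in 1 of 7 (Batf3, 1.96-fold). The dendritic cell sum was 72.2 to 93.6 in controls and 74.3 to 77.1 in mutants. Most of it was Fscn1, at 63.1 to 85.1 in controls and 60.2 to 64.0 in mutants, so the sum says little of the other markers. Mast cell and basophil markers were lower in 2 of 8, Cpa3 (2.35-fold) and Hdc (2.78-fold). Hdc stood at 59.2 to 77.4 in controls, far above Cpa3 at 0.667 to 1.39, and which cells made it was not tested. Of 7 tested megakaryocyte and platelet markers Ppbp rose by 3.46 and Pf4 by 1.28 on the log2 scale, and the other 5 did not pass. Erythroid markers were lower in 1 of 9 cases, fibroblast markers in 2 of 8, endothelial markers in 6 of 12, among them Plvap (1.66-fold), and cell cycle genes in 0 of 8 with 0 higher. All 8 proximal tubule markers were lower, and their sum was 1631 to 1868 in controls and 271 to 379 in mutants.

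**Figure D5:**
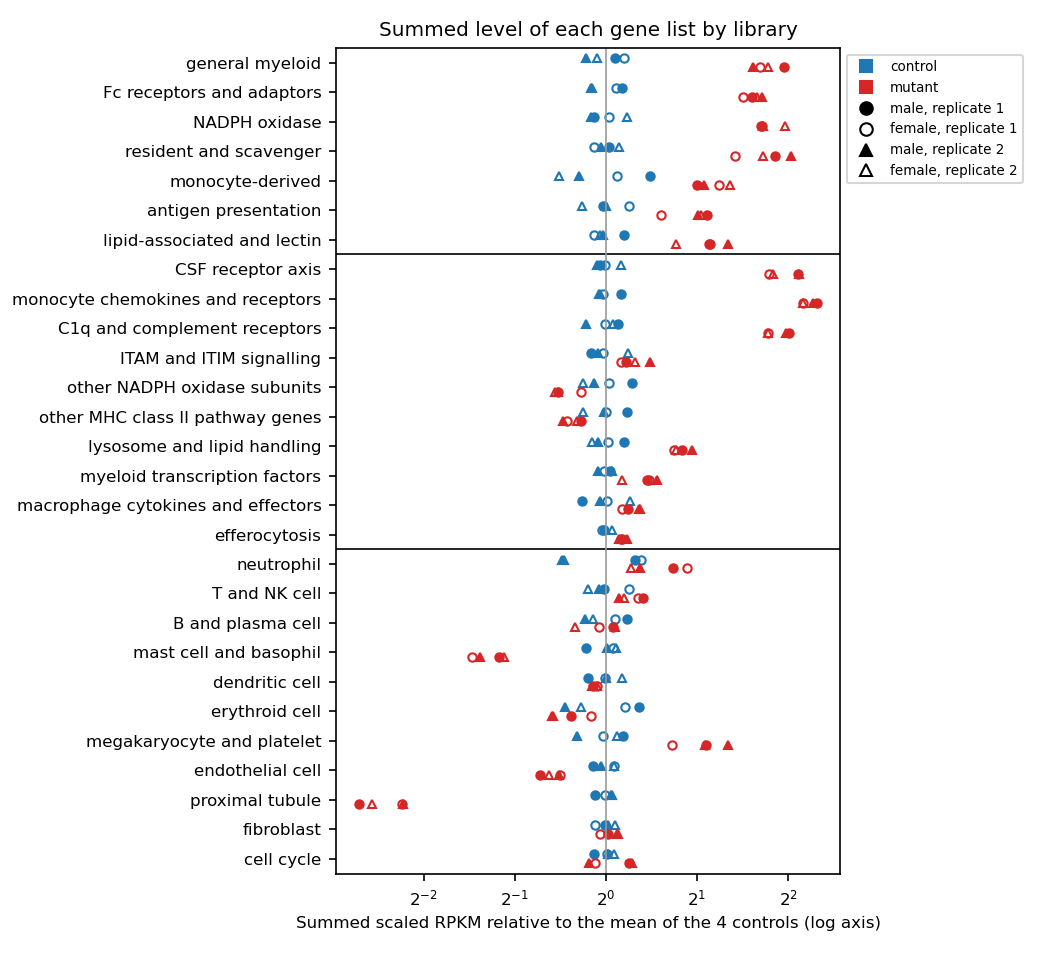
Summed scaled RPKM of each gene list in each library, relative to the mean of the 4 controls (log axis); blue is control, red mutant, circles replicate 1, triangles replicate 2, filled male, open female. The 7 groups of macrophage and monocyte genes (top) lie to the right of the controls in all mutants, as do the CSF receptor axis, chemokine and C1q lists, while the proximal tubule list lies far to the left. Most of the monocyte-derived sum is Plac8 and most of the lipid-associated and lectin sum is Lgals3 in every library, so these sums do not show a rise of each gene.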

How the data were processed

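Poly(A) RNA from 8 kidney samples had been sequenced. The authors deposited 1 table of RPKM for 35976 gene symbols with gene lengths. STAR, featureCounts and the mouse build mm10 are named, without versions, per the submitters' processing notes; which annotation and strand setting were used, and how reads matching several genes were counted, is not given in the sources used here.

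In each library RPKM times gene length fell on multiples of 1 step, and dividing by that step gave whole reads (tolerance 0.01) for each of the 179720 values above 0, so reads per gene and totals could be recovered. A gene was tested with at least 0.2 reads per 1e6 listed reads in 2 libraries and 15 reads in all, which kept 18156 genes. Marco and Itgax of the list, and genes of other lists such as Blk, reached that rate in mutant libraries only. The deposited RPKM was divided by factors from a separate implementation of the trimmed mean of M-values, with trims of 0.3 and 0.05. The test was limma 3.58.1 (R 4.3.3) on log2(scaled RPKM + 0.1), with a robust variance trend, Benjamini-Hochberg adjustment and a threshold of 0.05. Genotype and sex were fitted in an additive model of all 8 libraries, and the within-sex and interaction values in a model of the 4 group means. A further fit subtracted the value of Csf1r in the same library. The fit was tested on simulated data.

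The listed genes, their groups and the other gene lists were chosen with earlier results of these data known, and no list was tested as a set. Per-library values are given for the 3 genes of lowest p in each group, for genes that differed from Csf1r, and for a few others; of other lists, at most 4 genes of lowest p and those against the list's main direction are named. Some genes of these lists are not reported here. Gene positions and promoters come from RefSeq for GRCm38.p6 and exon overlaps from GENCODE M21. Alternatives were other pseudocounts (0.01 and 1), no filter, no or median-ratio scaling, voom on the reads, no sex term, a replicate block, each depth batch alone, C1qa as reference and each library left out. Intervals of the changes are from limma and cover the spread seen between libraries. The lower bound from reads, given for Vsig4 alone, covers counting error in the controls only. Both libraries of a group always differed beyond sampling of reads (chi-square 22.6 to 51.2 times its degrees of freedom), so none was treated as a duplicate.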

Additional observations from a re-analysis of the deposited data

Results flagged for a closer look

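For each of 101 tested genes named here, the 4 libraries of a genotype were searched for a single library far from the others (by Dixon's 95% limit on the gap to the nearest of the others), which chance gives in about 1 of 20 sets. Of 202 sets examined 15 were picked out (7.43%). From the macrophage and monocyte list 10 of 96 were (10.4%). All tested genes of that list were searched, while most other genes were named for a low p, so these shares are not comparable.

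Among mutants, the second female library was highest for Cd14 (10.5 scaled RPKM, the others 7.41 to 7.93) and for the neutrophil marker Ly6g (1.13, the others 0.588 to 0.618). The second male mutant was highest for Fcgr4 (2.00, the others 0.861 to 1.03). The first male mutant was highest for Timd4 (0.486, the others 0.0183 to 0.0851) and for Marco (2.37, the others 0.356 to 0.617). The first female mutant was lowest for H2-Ab1 (49.4, the others 68.5 to 71.8) and highest for Cyba (464, the others 379 to 388).

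Among controls, the first male library was highest for Lyve1 (1.23, the others 0.956 to 0.983), Arg1 (1.88, the others 0.665 to 0.825) and Ccl12 (2.70, the others 1.52 to 1.66). The second male control was lowest for C1qc (11.04, the others 13.1 to 13.6). The first female control was highest for H2-Eb1 (12.6, the others 7.76 to 8.56) and Clec7a (0.759, the others 0.534 to 0.546), and the second for Cd163 (0.636, the others 0.379 to 0.400) and C3ar1 (0.549, the others 0.339 to 0.342).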

How the results depend on the processing

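Of the 41 genes higher in mutants, 37 passed whichever of the 8 libraries was left out, and Ptprc, Fcgr4, Itgax and Clec7a did not. The count of higher genes was 38 to 43 with a library left out (30 to 38 in males, where 37 were reported, and 19 to 31 in females, where 31 were), and 0 were lower throughout. Over all genes 4745 passed, 3610 to 4846 with a library left out and 3112 in the replicate 2 libraries alone. The count that rose more than Csf1r, 9 as reported, was 7 to 13 with a library left out, 6 in the replicate 1 and 5 in the replicate 2 libraries, 6 with a pseudocount of 1 and 11 with one of 0.01, and 1 against C1qa. The count that changed less, 13 as reported, was 10 to 13 with a library left out, 7 with a pseudocount of 0.01, 19 with one of 1, 17 in the replicate 1 and 3 in the replicate 2 libraries, and 24 against C1qa. The genes of the list past the threshold for interaction or sex numbered 0 with each library left out. The cause of these moves was not tested. Timd4 changed sign with a pseudocount of 0.01 (-0.030), without the second male control (-0.081), without the first male mutant (-0.43) and in the replicate 2 libraries (-0.37), and Ly6c2 without the second male control (-0.10) or the first male mutant (-0.0092); with a library left out they ran from -0.43 to 0.49 and from -0.10 to 0.42, and neither had passed. Relative to Csf1r, a pseudocount of 1 turned Itgam (-0.29), Marco (-0.46) and Msr1 (-0.25), and a pseudocount of 0.01 turned Itgax (0.47), none past the threshold. A pseudocount of 1 moved the fold of 10 of the 41 by over 1.5 times and one of 0.01 that of 4. Same-numbered libraries did not all deviate together (correlations -0.003 to 0.379), so the numbers were not taken as pairs; with the replicate block 41 genes of the list and 5473 of all genes passed. In controls 15 of the 41 were under 1 scaled RPKM, where few reads limit the precision.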
